A study of Mus musculus with 3 samples.

Results

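The genes described here encode the proteins of the cytosolic ribosome. They were taken by symbol: protein-coding mouse genes named Rpl or Rps followed by a digit, with Rplp0, Rplp1, Rplp2 and Rpsa and without the S6 kinase genes. The rule took 91 of 21900 protein-coding genes, 56 with an Rpl symbol (large subunit) and 35 with an Rps symbol (small subunit). It also took 14 genes that are paralog-like copies or not ribosomal proteins, such as Rpl10l, Rps27l and Rps19bp1, which encodes a protein that binds Rps19. Of the other 77, Rps27a encodes a ubiquitin fusion. Fau, which encodes a ribosomal protein fused to a ubiquitin-like protein, lies outside the rule and held no peak in any library.

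Tet2 oxidises 5-methylcytosine, and the study asked which RNAs it binds. Cross-linking and immunoprecipitation (CLIP) with an antibody to Tet2 was done on 3 biological replicates of bone marrow derived mast cells from C57BL/6 mice, cultured with IL-3 and SCF and cross-linked with ultraviolet light. Their purity was checked by the authors through the surface receptors FcεRI and c-Kit, the protein precipitated was the cells' own Tet2, and the labels name no mutation or drug. They form 1 group, and neither an input nor a control antibody was analysed here. Peaks were listed per library on the mouse build mm10, with 3019, 2800 and 2377 peaks in replicates 1, 2 and 3. A peak's height is given in units, the smallest step between the deposited heights of its library, and the heights of a library sum to 19213, 18270 and 15431 units. The sequencing depth is unknown. Of the mast cell markers checked, 6 of 11 genes held a peak, among them Kit, Gata2 and Hdc. Of all protein-coding genes, 14.1% held one in at least 1 library. A peak was present in 1 of 5 macrophage markers and none of 5 neutrophil, 3 lymphocyte and 3 erythroid markers. With so few genes, the counts for these other cell types cannot be set apart from that share. The marker lists were not tested.

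The large ribosomal subunit forms peptide bonds and the small subunit decodes the mRNA. The mRNAs of ribosomal proteins are short, very abundant in growing cells, and many begin with a tract of pyrimidines (the terminal oligopyrimidine or TOP tract) through which mTOR signalling and the RNA-binding protein Larp1 set their translation. Several of these genes carry small nucleolar RNAs (snoRNAs), guides for the modification of ribosomal RNA, in their introns.

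Peaks lay just after the annotated start of Rpl13a, from base 10 in replicate 1 and base 17 in replicate 3, and of Rplp2, from base 4 in replicate 3, and none of them covered the first base. Both sequences are on chromosome 7 and come from RefSeq start windows on GRCm38.p6, a build that shares its chromosome coordinates with mm10. They are shown because these peaks lie nearest to an annotated start among the members. The first is the stretch common to the Rpl13a peaks of replicates 1 and 3 (chr7:45128700-45128729, minus strand, bases 17 to 46 from the annotated start), and the capitals mark the first ATG after that start, at base 32. The second runs from base -10 to base 20 around the start of Rplp2 (chr7:141447641-141447670, plus strand), and the capitals mark the bases under the peak of replicate 3, which began at base 4.
Rpl13a: aggcggctgccgaagATGgcggaggggcag
Rplp2: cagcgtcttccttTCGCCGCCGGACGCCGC
At Rplp2 a run of pyrimidines spans the start, and the peak took in its last 2 bases and the GC-rich stretch after them. At Rpl13a the common stretch held the ATG. The bases are printed on the gene's strand, and the strand of the bound RNA was not analysed here.

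A peak was counted for a gene when its midpoint lay in the gene's span. Position alone was used and no strand of a peak was read, so RNA from either strand would be counted alike. Ribosomal protein genes held 17, 16 and 17 peaks in replicates 1, 2 and 3, or 50 in all. At least 1 library had a peak in 23 of the 91 genes (25.3%), against 14.1% of all protein-coding genes. All 23 were among the 77 genes outside the paralog-like group, of which they make up 29.9%, and none of the 14 paralog-like genes held a peak. Peaks were present in 11, 13 and 12 member genes in replicates 1, 2 and 3, which is 13.2% ± 1.10 (SD, n = 3 libraries), where 8.55%, 8.04% and 7.02% of all protein-coding genes held one. The share of members was above that of all protein-coding genes in each of the 3 libraries. The list was chosen with earlier results of these data known, so this is a description and no test of the list was made.

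Of the 23 members with a peak, 14 were seen in a single library. Most protein-coding genes with a peak were likewise seen in 1 library, since 1391 of 3086 held one in at least 2. A peak was present in all 3 libraries in 4 members (4.40%), against 3.16% of all protein-coding genes, and in at least 2 libraries in 9, against 6.35%. At a height of at least 5 units 11 members held a peak, where 5.65% of all protein-coding genes did. The gap between members and all protein-coding genes was smaller for peaks in all 3 libraries than for peaks in any library, a difference that was not tested.

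Ribosomal protein genes are short, with a median span of 3175 nt (374 nt at Rps27rt to 16779 nt at Rps23rg1) against 17146 nt for all protein-coding genes. Among the 10809 protein-coding genes with spans no longer than 16779 nt, 9.7% held a peak in at least 1 library and 2.26% in all 3. Members held 14.8 peaks per 100 kb of span, against 3.37 in these shorter genes and 0.679 in all protein-coding genes. The shorter genes have a median span of 5548 nt, still longer than that of the members, so the comparison is not matched for length. Members took 0.390% ± 0.0446 of the summed height of a library (SD, n = 3), with 0.0322% of the protein-coding span. By number they are 91 of the 21900 protein-coding genes, so the low share of span reflects short genes. The shares of height and of span have different wholes, since all protein-coding genes took 72.3% ± 2.00 of the summed height (SD, n = 3). RNA levels were not analysed here, so binding by Tet2 and the abundance of these mRNAs cannot be told apart.

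Member peaks were low. Of the 50, 36 stood at 3 or 4 units (72.0%), against 65.0% of peaks in protein-coding genes at 4 units or fewer, and only 1 reached 10 units, or 2.00% against 8.31%. The median peak stood at 4 units in both. The median of the tallest peak per gene was likewise 4 units, in the 23 members and in the protein-coding genes that held a peak.

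**Figure D1:**
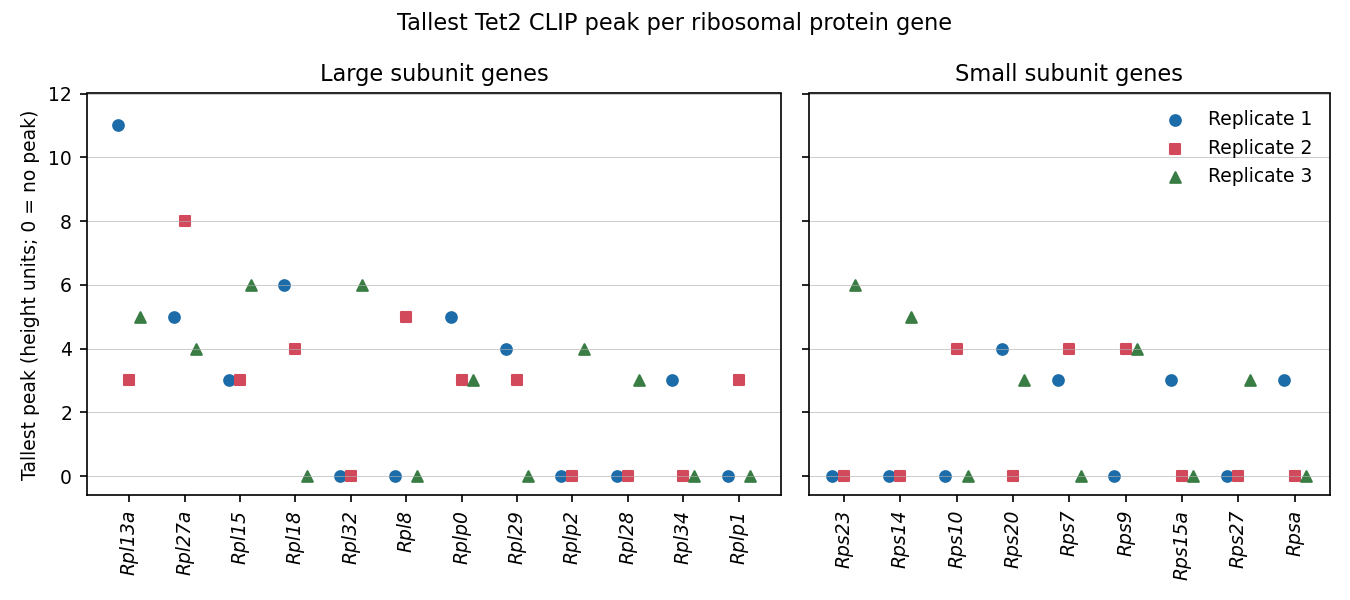
Tallest peak in height units (vertical axis) of 21 of the 23 ribosomal protein genes with a peak, for replicates 1, 2 and 3. The left panel holds 12 large subunit genes and the right panel 9 small subunit genes, and 0 means no peak. Only Rpl13a, Rpl27a, Rpl15 and Rplp0 have points above 0 in all 3 libraries.

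Among large subunit genes 13 of 56 held a peak (23.2%), and among small subunit genes 10 of 35 (28.6%). Per library the shares were 12.5%, 16.1% and 12.5% of large subunit genes, against 11.4%, 11.4% and 14.3% of small subunit genes. The difference, large minus small, was 1.07, 4.64 and -1.79 percentage points, a mean of 1.31 ± 3.22 (SD, n = 3), so it was smaller than the spread between libraries and changed sign in replicate 3. An exact paired permutation test over the 3 libraries, two-sided, gave p = 0.75, where the smallest p that 3 libraries allow is 0.25. Without the 14 paralog-like genes, none of which held a peak, the mean difference was 2.69 percentage points. The 4 genes with a peak in every library all encode large subunit proteins, and no small subunit gene reached that. They are 7.14% of the large subunit genes, where 3.16% of all protein-coding genes held a peak in every library. At that share few of 35 genes would be counted, so the absence in the small subunit says little. With peaks of at least 5 units, 0 members of either subunit held one in all 3 libraries. Of 8 loci in 6 large subunit genes and 3 loci in 2 small subunit genes, each held overlapping peaks in 2 or 3 libraries. Whether the subunits differ in this was not tested.

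**Figure D2:**
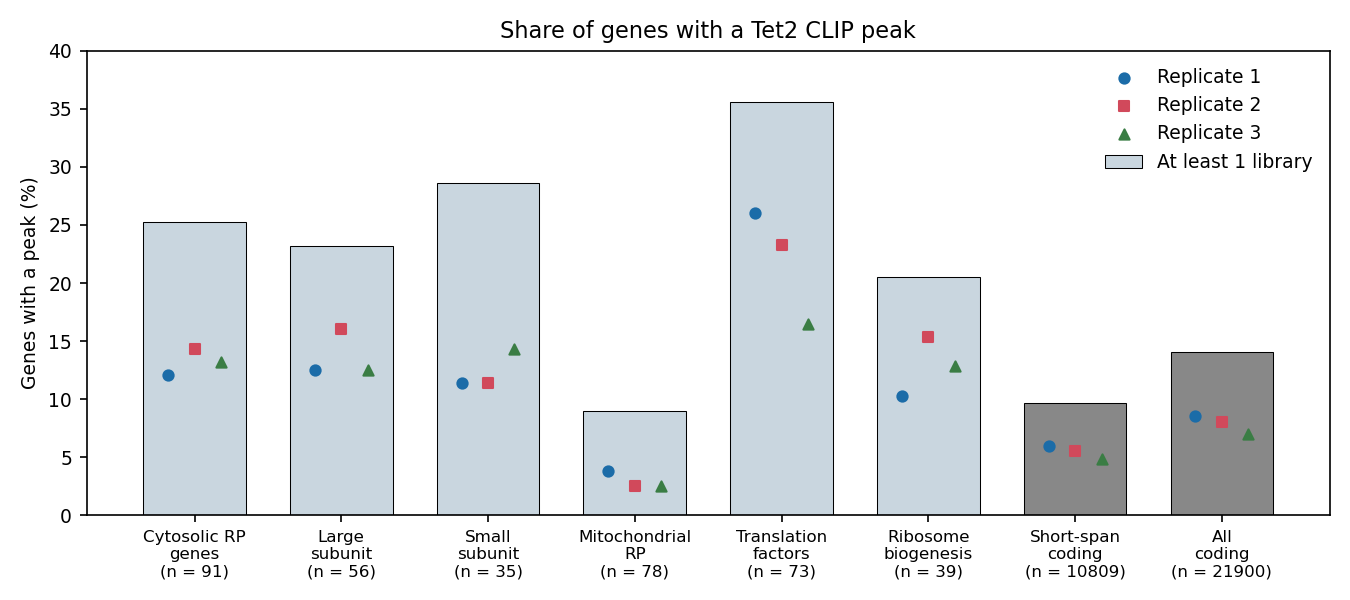
Percent of genes with a peak (vertical axis), with bars for at least 1 library and points for replicates 1, 2 and 3; RP stands for ribosomal protein, and short-span coding genes are those with spans up to 16779 nt. Cytosolic ribosomal protein genes reach 25.3% over the 3 libraries and 13.2% on average per library, above both grey bars' points in each library.

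Of the genes with peaks in every library, Rpl13a led. It encodes a large subunit protein that, in human myeloid cells, also takes part in silencing mRNAs after interferon gamma. It lies on chromosome 7 (45125563 to 45128745, minus strand) and held 6, 1 and 3 peaks in replicates 1, 2 and 3, more than any other member, with tallest heights of 11, 3 and 5 units. Its tallest peak was at one place in all 3 libraries, with 33 nt in common (45126749 to 45126781), 1979 nt after the annotated start at its midpoint in replicate 1. Replicate 1 stood well above the other libraries there. A second site, 45126524 to 45126537, held 4 units in replicate 1 and 3 units in replicate 3. The site just after the start, which holds the sequence printed above, reached 3 units in both of these libraries. Replicate 1 had 3 further peaks of 5, 3 and 3 units that no other library shared.

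The Rpl13a span holds 4 snoRNA genes, Snord35a, Snord34, Snord33 and Snord32a, and the microRNA gene Mir5121. No Rpl13a peak overlapped a snoRNA. The common site lay between Snord34 and Snord33, 81 nt from Snord34 in replicate 1, and the second site lay between Snord35a and Snord34. The only overlap with a small RNA gene was 1 nt of Mir5121, at the edge of the 5-unit peak of replicate 1 (45126991 to 45127006). The spans came without exons, so whether these sites are exonic was not analysed here.

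**Figure D3:**
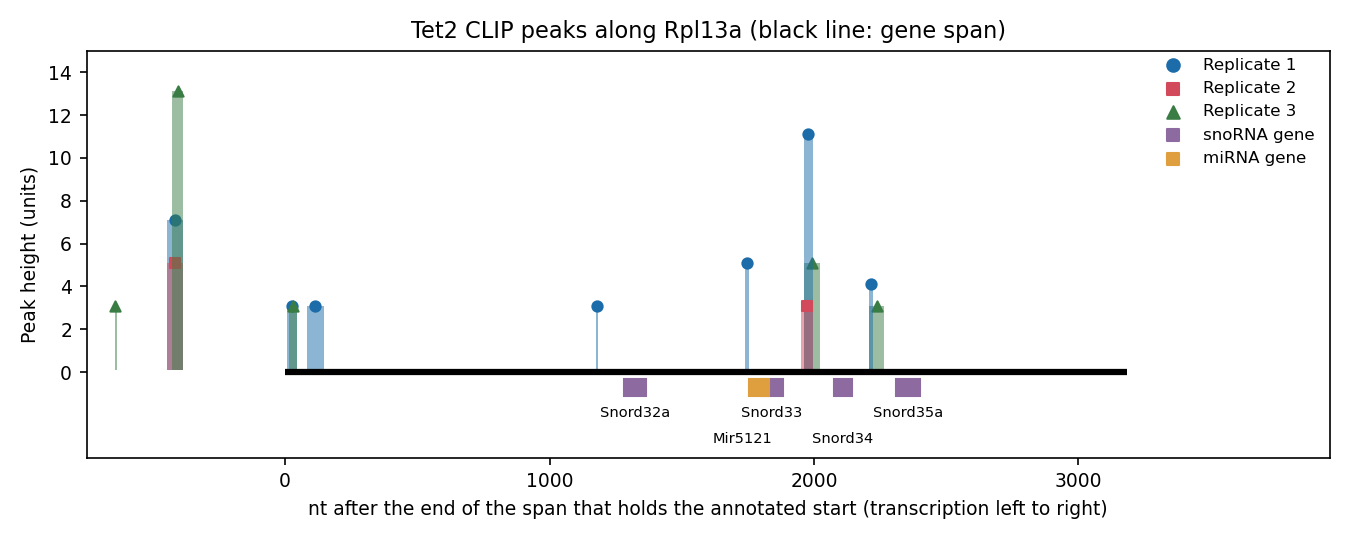
Peaks along Rpl13a, in nt from the span end that holds the annotated start (horizontal axis) and height units (vertical axis), coloured by replicate; the black line is the gene span and boxes below it are snoRNA and microRNA genes. The peaks near 1979 nt come from all 3 libraries and lie between snoRNA boxes, and a further group from all 3 lies 386 nt before the start, outside the span.

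Rpl27a and Rpl15, both large subunit proteins, each held 1 peak per library, at the same place every time. Rpl27a (chromosome 7, 109519195 to 109522369) reached 5, 8 and 4 units in replicates 1, 2 and 3. The peaks were 4, 38 and 92 nt wide and shared the 4 nt from 109519488 to 109519491, about 294 nt after the start. Rpl15 (chromosome 14, 18267823 to 18270986) reached 3, 3 and 6 units. Its peaks had the same start in all 3 libraries, 18270770, and were 8, 8 and 5 nt wide, about 213 nt after the annotated start of the gene. Heights thus ran from 4 to 8 units at Rpl27a and from 3 to 6 units at Rpl15, and a unit is not the same share of the summed height in each library. Rplp0, the protein that anchors the stalk where elongation factors dock, was the fourth gene with a peak in each library, of 5, 3 and 3 units. Its peaks did not fall at one site: replicates 1 and 3 shared a peak at chromosome 5, 115560829 to 115560904, and that of replicate 2 lay at 115559731 to 115559790, nearer to the start.

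The other members of the stalk, Rplp1 and Rplp2, held 1 peak each, of 3 units in replicate 2 and of 4 units in replicate 3. Among the remaining large subunit genes, Rpl18 reached 6, 4 and 0 units. Replicates 1 and 2 shared its site at chromosome 7, 45720299 to 45720306. Rpl29 reached 4, 3 and 0 units at a site with 68 nt in common (chromosome 9, 106429723 to 106429790). These were the only large subunit genes seen in exactly 2 libraries. Rpl32 held 1 peak of 6 units, in replicate 3. Rpl8, which lies close to the peptidyl transferase centre, held 1 of 5 units in replicate 2. Rpl28 held 1 of 3 units in replicate 3 and Rpl34 1 of 3 units in replicate 1.

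Of the small subunit genes, Rps20, Rps9 and Rps7 were seen in 2 libraries. Rps20 (chromosome 4, 3831584 to 3835655) held 2 peaks of 4 units each in replicate 1 and 2 of 3 units each in replicate 3, at the same pair of sites. One of them, 3835282 to 3835291, had identical ends in both libraries, and the other shared 110 nt. Rps9 (chromosome 7) reached 0, 4 and 4 units, and its peak of 4 nt at 3706733 to 3706736 was also identical in replicates 2 and 3. Rps7, which binds the p53 regulator Mdm2, reached 3, 4 and 0 units with 3 peaks that did not overlap. Their midpoints lay 85, 210.5 and 318 nt after the start.

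The other small subunit genes held peaks in 1 library only. Rps23, a protein of the decoding centre, reached 6 units in replicate 3. Rps14, whose loss on one allele underlies the anaemia of the human 5q- syndrome, held peaks of 5 and 4 units in replicate 3. Rps10 held 2 peaks of 4 units in replicate 2. Rps15a and Rpsa, the laminin receptor protein, each held 1 peak of 3 units in replicate 1, and Rps27 held 1 of 3 units in replicate 3.

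No peak was found in 68 members, 43 of the large and 25 of the small subunit. They include Rpl5 and Rpl11, which join 5S ribosomal RNA and bind Mdm2; Rps6, the substrate of S6 kinases; Rps19, mutated in human Diamond-Blackfan anaemia; and Rpl3, a core protein of the large subunit. Span length was alike in the genes with a peak (median 3183 nt) and without one (median 3138 nt). Of 30 members that hold at least 1 of 59 snoRNA genes, 8 had a peak (26.7%), against 15 of the 61 members without a snoRNA (24.6%). How the authors counted reads that match several near-identical copies of these genes is not stated in the sources at hand, so both peaks and their absence are uncertain where such copies exist.

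Overlapping peaks formed 36 loci in member genes: 3 were held by all 3 libraries (8.33%), 8 by 2 libraries (22.2%) and 25 by 1 (69.4%). In all protein-coding genes, the shares of 5242 loci were 10.6%, 14.9% and 74.5%. Peaks at the 11 recurrent loci had a median width of 35 nt and a median height of 4 units, against 57 nt and 3 units at the loci of a single library. Of 11 peaks 10 nt wide or less, 9 lay at recurrent loci, at Rpl15, Rpl27a, Rpl18, Rps20 and Rps9. Peaks this narrow were 22.0% of the member peaks, against 7.05% of peaks in protein-coding genes.

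The distance of each peak from the start of its gene was also measured. An annotated start with its strand was given for 70 members, 15 of them with a peak, and for 17492 protein-coding genes. In the members, 19 of 37 peaks (51.4%) had their midpoint in the first 300 nt after the nearest start, against 25.9% of peaks in protein-coding genes with spans up to 16779 nt and 21.0% of those in all protein-coding genes. The limit of 300 nt was chosen after the positions were seen. Peaks of Rpl27a (294.5 nt in replicate 1, 281.5 nt in replicate 2) and Rplp0 (293.5 nt in replicate 2) lay just inside it. A peak of Rps7 (318 nt in replicate 2) lay just outside, so the shares depend on this limit. The shares of members were 50.0%, 45.5% and 58.3% in replicates 1, 2 and 3, against 26.2%, 25.5% and 25.9% in the shorter genes. They were above the shorter genes in every library, but the limit was set on these same peaks, so this is no separate support. The members' median distance was 294.5 nt, against 873 nt in the shorter genes, whose median span of 5548 nt is longer than that of the members. By library it was 736.75, 318 and 256 nt, against 900.25, 885.5 and 837.5 nt in the shorter genes, so replicate 1 stood nearest to them. In large subunit genes 14 of 25 peaks (56.0%) lay in the first 300 nt, with a median distance of 293.5 nt. In small subunit genes it was 5 of 12 (41.7%), with a median of 1092.25 nt, farther than in the shorter genes, and by library 2 of 3, 1 of 5 and 2 of 4 peaks, the share in replicate 2 being below that of the shorter genes. The difference between the subunits was not tested. Of the 15 genes, 12 held a peak in this first stretch. Rps9, Rps10 and Rpsa did not, with all their peaks at least 1866.5 nt after the start.

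**Figure D4:**
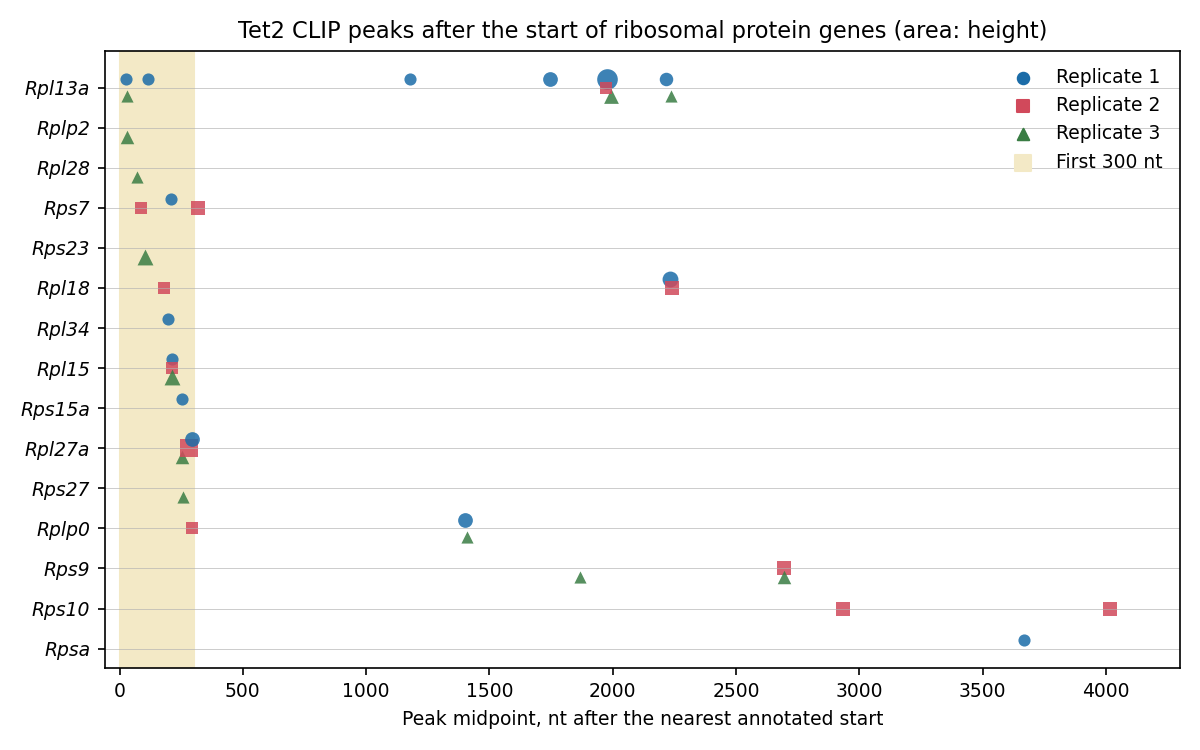
Midpoint of each peak in nt after the nearest annotated start (horizontal axis) for the 15 ribosomal protein genes with a peak and an annotated start, coloured by replicate, with symbol area growing with height. The shaded band is the first 300 nt, which holds 19 of the 37 peaks from 12 of the 15 genes.

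The start windows were searched, on the gene's strand, for a C followed by at least 4 C or T bases, the core of the TOP tract. It stood exactly at an annotated start in 15 of the 70 members (21.4%), against 2.67% of protein-coding genes and none of 69 mitochondrial ribosomal protein genes. Beginning within 5 nt on either side of a start, it was present in 32 members (45.7%), against 21.5% of protein-coding genes and 17 of 69 mitochondrial ribosomal protein genes (24.6%). Of the 15 members with a peak, 12 had it within 5 nt, as at Rpl13a, Rpl15, Rpl27a and Rps23, and Rplp0, Rps7 and Rpsa did not. Of the 42 members without a peak outside the paralog-like group, 15 had it (35.7%). This relation was not tested, and a match of letters does not show that the tract is used.

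Other genes of translation were set beside the members by the same count. Mitochondrial ribosomal protein genes, whose products form a separate ribosome, held a peak in 7 of 78 (8.97%), none in more than 1 library, and Mrpl15 had the tallest (6, 0 and 0 units), followed by Mrpl53 (0, 0 and 4 units). Translation factor genes, taken by an Eif or Eef symbol with Pabpc1 and Etf1 added, held one in 26 of 73 (35.6%). The symbol rule also takes genes that are not factors, such as Eif4ebp1 and Eif4ebp2, which are on the growth control list below as well. Of the 26, 8 held a peak in all 3 libraries, led by the helicase Eif4a1 with 26, 34 and 17 units. The poly(A)-binding protein gene Pabpc1 followed with 16, 20 and 16 units, the scaffold Eif4g1 with 18, 13 and 13 and the elongation factor Eef2 with 10, 11 and 14, where the tallest member, Rpl13a, reached 11, 3 and 5. Ribosome biogenesis genes held one in 8 of 39 (20.5%), with nucleolin, Ncl, at 0, 13 and 3 units and Ubtf, a factor of RNA polymerase I, at 8, 3 and 4. Of 12 genes that act on the translation or growth control of ribosomal protein mRNAs, 7 held a peak in at least 1 library (58.3%). Only 2 did in at least 2 libraries, and by library it was 4, 5 and 1 of the 12. Among the 7, Larp1, which binds TOP tracts, reached 9, 6 and 6 units and was the only one seen in all 3 libraries. These lists differ in span length, with medians of 7690.5, 15330, 13923 and 26751.5 nt, and the differences between them and the members were not tested.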

How the data were processed

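CLIP peaks of 3 Tet2 libraries were read from 1 table. The authors deposited, as a signal, the normalized height of each peak, called per library. Per the labels' protocols, peaks came from a valley-seeking caller, and cutadapt 1.9, STAR 2.4.0i and mm10 are named in the submitters' processing notes. No threshold or rule for multiply mapped reads is given in these sources. Heights, which add up to 1 in a library, were multiplied by the number that makes all of them whole within 0.05 of a unit (100% of peaks). Whether a unit is a read is unknown, so no count model was used. Starts were read as 0-based, and coordinates are printed 1-based.

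Genes came from RefSeq GRCm38.p6 spans, without exons. The strand and starts of genes came from RefSeq start windows (250 nt before to 50 nt after a start) and were used where listed. No strand was read for peaks. Loci are peaks that overlap by at least 1 nt. Subunits were compared with an exact paired permutation test over libraries. The labels name no separate animals, so the SD may be partly technical. Members, gene lists and the symbol rule were chosen with earlier results of these data known. Members with a peak are named, except those not reported here, which stay in the counts, comparison lists by their tallest genes, and members without a peak as examples. Of 12 mast cell markers listed, those found as protein-coding symbols were counted. Gene assignment and loci were tested on simulated data. Python 3.11.15, pandas 2.3.3 and numpy 2.4.6 were used.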

Additional observations from a re-analysis of the deposited data

Results flagged for a closer look

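Each of the 3 libraries had a peak at the pseudogene Rpl18-ps2 on chromosome 6 (128313336 to 128313960), outside the members. The peaks of replicates 1 and 3 overlapped and ended at 128313655. That of replicate 2 began at the next base, 128313656, and overlapped neither. They reached 19, 16 and 15 units in replicates 1, 2 and 3, taller than any peak in a member, where Rpl18 itself reached 6, 4 and 0 units. Of 318 ribosomal protein pseudogenes, 4 held a peak. Those other than Rpl18-ps2, namely Rps10-ps2 (8 units), Rpl15-ps5 (4 units) and Rplp2-ps1 (3 units), were seen in replicate 1 alone. The Rpl15-ps5 peak also lay in the span of Rsf1, and the Rplp2-ps1 peak in that of Wdr89. To which gene each of these peaks belongs was not tested. The peaks at Rpl18-ps2 and Rps10-ps2 lay in no other gene span.

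A second signal seen in all 3 libraries lay 386 nt before the annotated start of Rpl13a, outside every gene span. It was at chromosome 7, 45129131 to 45129190 in replicates 1 and 2 and to 45129171 in replicate 3. It held 7, 5 and 13 units in replicates 1, 2 and 3, against 11, 3 and 5 units for the tallest peak within Rpl13a.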

How the results depend on the processing

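Any overlap in place of the midpoint and starts read as 1-based left every count as it was, and leaving out peaks in several spans left 22 of the 23 genes. Leaving out the paralog-like genes kept all 23 genes and moved the mean difference between subunits from 1.31 to 2.69 percentage points. With peaks of at least 5 units, 11 members held a peak, 8 of the large and 3 of the small subunit, with 14 peaks, 0 of these genes in all 3 libraries, and a median tallest height of 6 units. A peak in at least 2 libraries left 9 members, and at least 2 peaks per gene left 11. Leaving out 1 library gave 33 to 34 peaks, 17 to 20 members, and a difference between subunits of -0.36 to 2.86 percentage points, negative without replicate 2. Loci in all 3 libraries numbered 3 under each rule tried. With spans extended by 500 nt, a setting added after seeing the data, 24 members and 56 peaks were counted, the added gene being Rps29, whose span ends 249 nt from a peak in the 7SL gene Rn7s1. No paired analysis of sample groups was possible because the samples form 1 group, and the test of the subunits is paired within libraries. Most peaks stand at the lowest heights listed, so a gene without a peak may lie below the caller's limit.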

Other observations

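Members with a peak were uneven over the chromosomes, a count made after the positions were seen. On chromosome 7, 7 of 14 members held a peak: Rpl13a, Rpl18, Rpl27a, Rpl28, Rplp2, Rps9 and Rps15a. On all other chromosomes it was 16 of 77, with none of 7 on chromosome 11, none of 5 on chromosome 10 and none of 4 on the X chromosome. Of all protein-coding genes, 13.1% held a peak on chromosome 7 and 14.2% elsewhere. No test of this was made.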
